A study of Mus musculus with 8 samples.

Results

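In the genes described here, the difference from control with T-bet and GATA3 together departed from the sum of the single-factor differences in EL4 lines. Within each replicate, the GATA3 difference measured with T-bet (T-bet + GATA3 minus T-bet + Plum) was reduced by the GATA3 difference measured without it (GFP + GATA3 minus GFP + Plum), on log2 CPM (counts scaled to the size of the library). This quantity, the interaction, is 0 where the 2 effects add on the log scale. A member had an interaction of the same sign and of at least 1 on the log2 scale, a 2-fold departure, in both replicates. The rule found 300 members among 14791 genes with enough counts to be tested, out of 54146 genes in the files: 137 positive (0.926% of the genes tested) and 163 negative (1.10%).

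EL4 is a T lymphoma line from C57BL/6 mice. Every line carried 2 retroviral vectors. GFP + Plum cells received both fluorescent protein controls, T-bet + Plum cells received FLAG-T-bet, GFP + GATA3 cells received HA-GATA3, and T-bet + GATA3 cells received both factors. Before RNA extraction every line was stimulated for 4 h with the phorbol ester PMA at 50 ng/ml, together with the calcium ionophore ionomycin at 1 μM. Each combination was 1 transduced line with 2 libraries from harvests on different days, so p-values measure the spread between harvests of the same lines. A difference due to a factor and one particular to a line cannot be told apart. An effect of a factor, below, means a difference between lines. The lines keep endogenous Gata3, and the control is therefore not a cell without GATA3.

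T-bet, a T-box factor encoded by Tbx21, directs CD4+ T cells towards the TH1 fate, in which cells make IFNγ. GATA3, a zinc finger factor, directs them towards the TH2 fate, in which cells make IL-4, IL-5 and IL-13. T-box factors recognise DNA around the core GTGTGA, and GATA factors recognise the core GATA. Both factors can be present in the same cell, and they can bind each other. The 2 × 2 design asks whether either one alters what the other does to a given gene. A gene may be changed further by both together than by either alone (synergy), changed by each but not by their sum in the pair (a shared effect), or changed by one factor in a way that the other reduces (antagonism).

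The factors themselves followed the labels. Tbx21 was at 1.78 to 3.59 CPM in the 4 libraries without the T-bet vector and at 129 to 160 CPM in the 4 libraries with it. Gata3 was at 25.8 to 53.3 CPM without the GATA3 vector and at 165 to 326 CPM with it. In T-bet + GATA3 cells Gata3 was at 204 and 165 CPM, below the 283 and 326 CPM of GFP + GATA3 cells, and its part in the interactions below was not tested. Of 7 T cell markers, 6 exceeded 1 CPM. The NK marker Klre1 reached 12.4 CPM, in a T-bet line, and every B cell, macrophage, erythroid, fibroblast and platelet marker listed stayed below 1 CPM. Estimated counts per library ranged from 8038565 to 16003519, and 3 of the 4 replicate 1 libraries were the shallowest. In bulk RNA, fewer cells expressing a gene and less RNA per cell cannot be told apart.

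No gene passed the test of the interaction. By edgeR's quasi-likelihood test with Benjamini-Hochberg adjustment, 0 of 14791 genes (0%) had an adjusted p of at most 0.05, and 381 (2.58%) had an unadjusted p below 0.05, where 5% would be the share for uniformly spread p-values. The smallest adjusted p was 0.212, for the long non-coding RNA RP23-115O21.3. DESeq2 called 14 of 15339 genes (0.0913%), 13 of them members. These tests read the same 8 libraries as the members' rule, so nothing about the members is supported by them. DESeq2's adjusted p is given below only for genes that it called. It was 0.638 for Gbp2, 0.512 for Spink5 and 0.622 for Tnks1bp1, which DESeq2 did not call. Among the 300 members, the edgeR adjusted p was 0.212 for RP23-115O21.3, 0.363 for Mylk4 and 1.00 for the other 298.

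The 2 replicates share no library, and their interactions were not alike across genes. Pearson's r between them was -0.09 over the 14791 genes tested and -0.19 over the 11449 genes with no library below 10 counts. These are descriptions across genes, which are not independent replicates. The interaction had one sign in both replicates in 42.2% of genes. Interactions of at least 1 in both replicates but of opposite sign were found for 428 genes (2.89%), more than the 300 of one sign. Of the 100 genes with the largest positive interaction in replicate 1, 50.0% were positive in replicate 2, beside 48.6% of all genes. The other 3 ends (negative in replicate 1, positive and negative in replicate 2) gave 52.0%, 44.0% and 51.0%, beside 51.4%, 48.4% and 51.6%. Over the genes with no library below 10 counts, the 4 ends in the same order gave 42.0%, 57.0%, 49.0% and 29.0%, beside 51.1%, 48.9%, 46.0% and 54.0%. The last of these, the genes most negative in replicate 2, had a median of 0.51 in replicate 1. The members below are described by their values in each library and are not established as interaction genes.

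**Figure D1:**
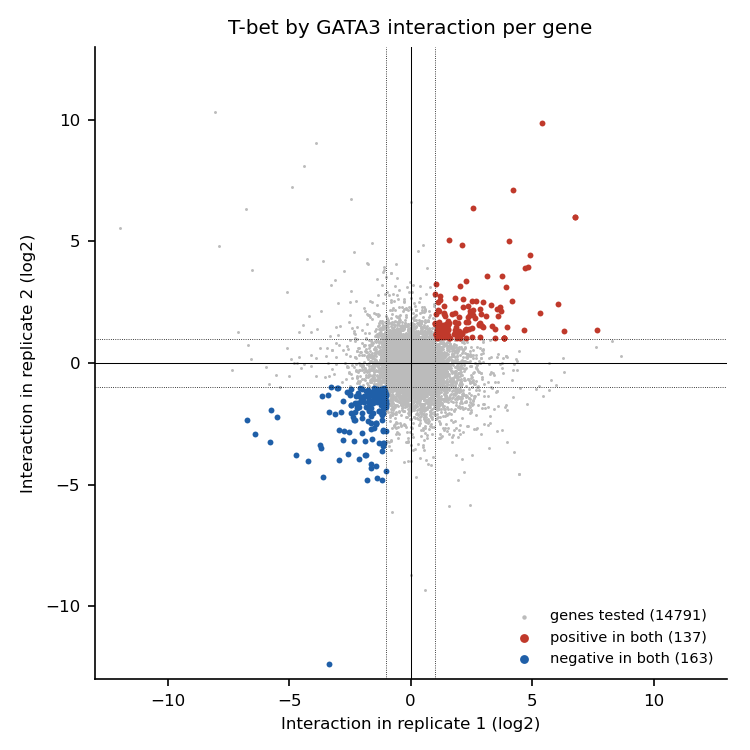
Interaction of T-bet and GATA3 per gene in replicate 1 (x axis, log2) and replicate 2 (y axis, log2), for the 14791 genes tested, with dotted lines at 1 and -1. The 137 positive members (red) and 163 negative members (blue) lie in the outer corners along the rising diagonal, and 428 genes lie in the corresponding corners of opposite sign.

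The members had lower counts than the genes tested and more often shared sequence with other genes. Their median level in the highest line was 1.59 CPM, against 19.6 CPM over all genes tested. In 91 members (30.3%, against 3.29% of genes tested) at least 1 line had at most 3 counts in both libraries. For such genes the size of the interaction depends on the count added before taking logs. Of the members, 131 (43.7%) were protein-coding, against 74.8% of genes tested, and 69 were pseudogenes (23.0% against 9.08%). When read over all 16 ways to take 1 library per line, 89 members (40 positive and 49 negative) kept their sign and a size of at least 1.

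Transcript abundance was estimated by the authors from matches of short words of sequence, so reads from identical stretches are divided between genes. In 115 members (38.3%), at least 50% of the 31-base words of their transcripts were present in another gene, against 12.9% of the 14780 genes tested with a transcript model. For 144 members, another gene held at least 10% of those words. When the counts of each of these members were summed with those of such genes, 12 of the 144 still met the rule. A sum is governed by its most abundant gene, so a low member is diluted by construction. Fam177a, a positive member, and RP24-491I24.3, a negative member, are near-identical copies on chromosome 12, and the interactions of their counts summed with those of Ppp2r3c, which shares words with both, were 0.06 and 0.26. Pde2a, a phosphodiesterase gene with interactions of 6.07 and 2.43, shares 63.8% of its words with the overlapping gene RP23-194H4.2 and gave 0.63 and -0.81.

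**Figure D2:**
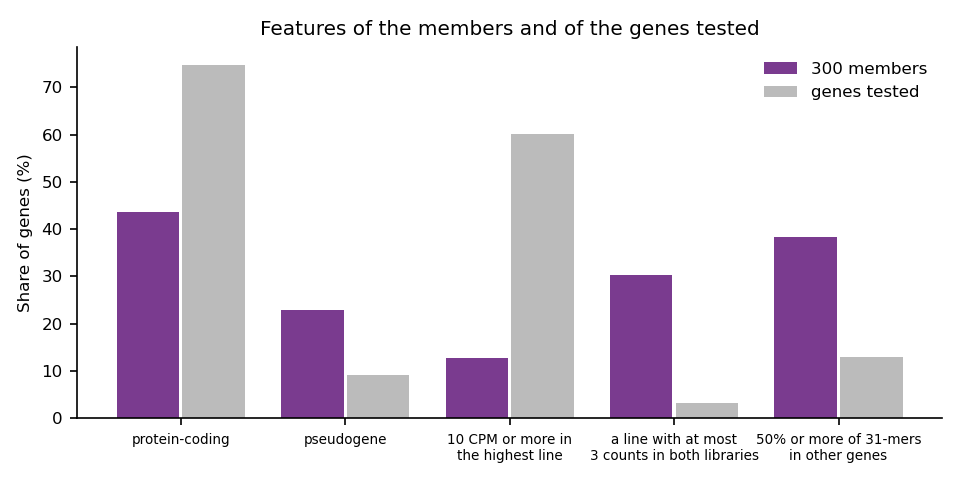
Share of genes (y axis, percent) with each feature among the 300 members (purple) and the genes tested (grey). Members were less often protein-coding (43.7% against 74.8%) and more often had a line with at most 3 counts in both libraries (30.3% against 3.29%) or at least 50% of their 31-base words in other genes (38.3% against 12.9%).

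A level of 10 CPM in the highest line together with less than 50% of words in other genes was met by 23 members, 6 positive and 17 negative, of which 21 were protein-coding. This selection was made after the values were seen, and the members described first come from it. With these classes read from mean log2 differences from GFP + Plum at a threshold of 1, 8 of the 23 showed a T-bet effect reduced by GATA3, 6 synergy, 4 a shared effect, 2 a GATA3 effect reduced by T-bet, and 3 were unclassed. Among all 300 members the same classes held 71, 48, 47, 52 and 82.

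**Figure D3:**
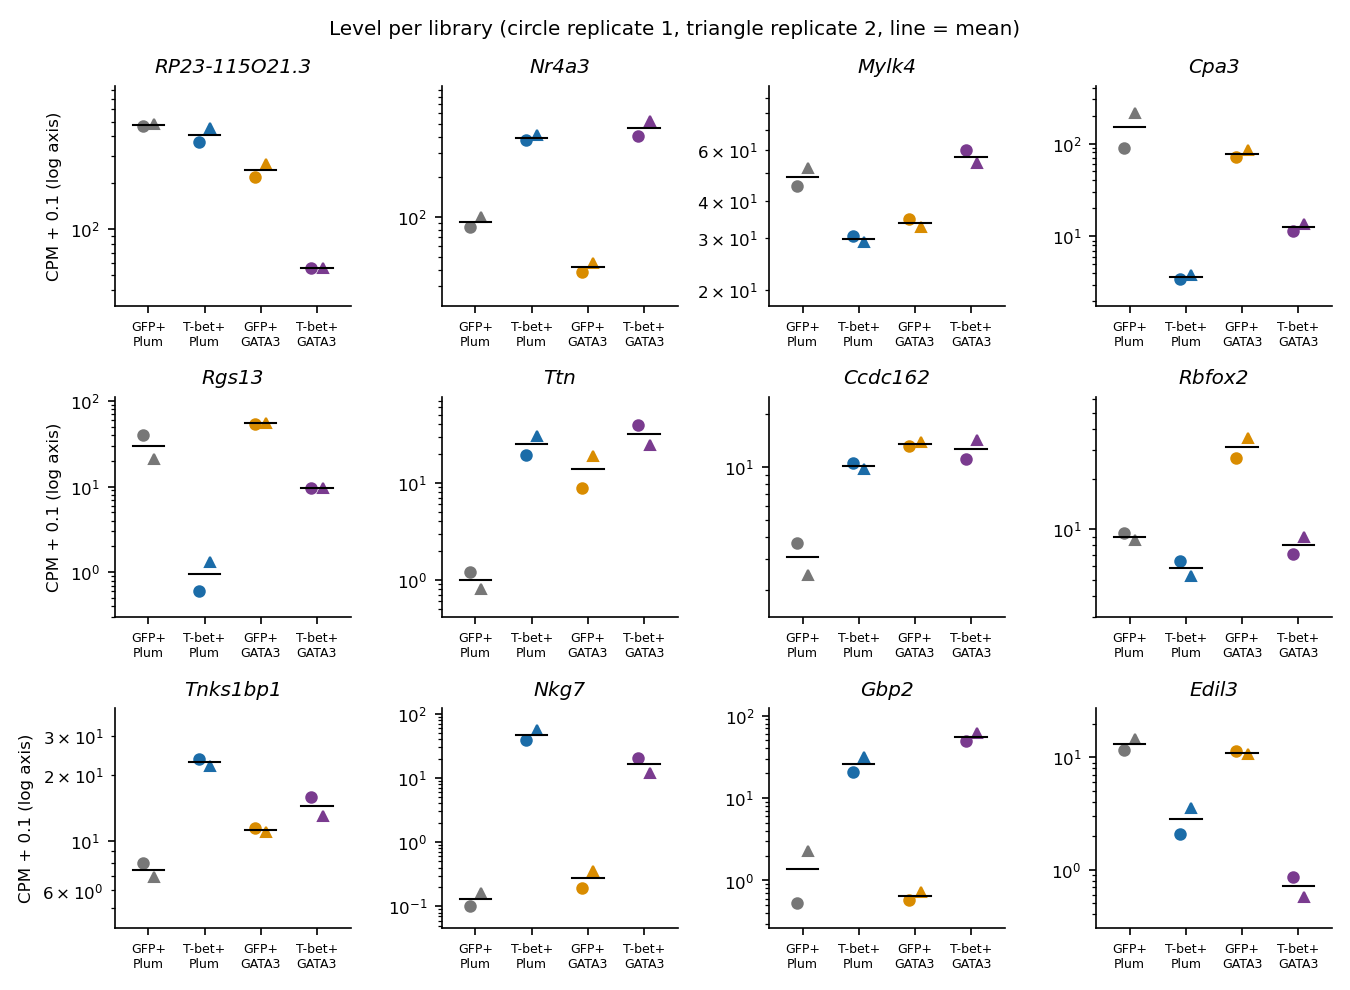
CPM plus 0.1 (y axis, log scale) of 12 well-counted members in each library of the 4 lines (x axis), with circles for replicate 1, triangles for replicate 2 and a line at the mean. Cpa3 and Rgs13 are lowest in T-bet + Plum, RP23-115O21.3 is lowest in T-bet + GATA3, and Mylk4 is lower in both single-factor lines than in the other 2.

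Of the well-counted positive members with a T-bet effect reduced by GATA3, Cpa3 and Rgs13 had the largest mean interactions. Cpa3 (ENSMUSG00000001865.2, chr3:20215620-20242181, GRCm38) encodes carboxypeptidase A3, a protease of mast cell granules. It was at 89.9 and 212 CPM in GFP + Plum cells, 3.36 and 3.76 in T-bet + Plum, 71.1 and 84.0 in GFP + GATA3, and 11.4 and 13.6 in T-bet + GATA3. The 4 libraries with T-bet lay below the 4 without it, and within T-bet cells those with GATA3 lay above those without. On the log2 scale the T-bet difference was -4.68 and -5.76 without GATA3 and -2.63 and -2.61 with it, giving interactions of 2.05 and 3.15. The edgeR estimate was 2.76 ± 0.54 (SE), and DESeq2's adjusted p was 9.32e-05. Without GFP + Plum replicate 1, the lower of its 2 control values, the edgeR estimate was 3.25 and the adjusted p 0.0271.

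Rgs13 (chr1:144138654-144177372), which encodes a regulator of G protein signalling expressed in mast cells and germinal centre B cells, was also lowest in T-bet + Plum. It was at 39.4 and 20.7 CPM in GFP + Plum cells, 0.498 and 1.23 in T-bet + Plum, 54.0 and 55.2 in GFP + GATA3, and 9.62 and 9.64 in T-bet + GATA3. The T-bet difference was -5.93 and -3.92 without GATA3 and -2.47 and -2.50 with it. The edgeR estimate was 2.47 ± 0.54 (SE), and DESeq2's adjusted p was 0.00704. The interactions were 3.46 and 1.42, and T-bet + Plum rested on 4 and 18 counts. Clec4d, a C-type lectin receptor of myeloid cells, had 5.57 and 9.13 CPM in GFP + Plum cells, 0 in both T-bet + Plum libraries, 6.89 and 10.4 in GFP + GATA3, and 0.866 and 0.532 in T-bet + GATA3. It was not among the well-counted members. With 0 counts in both T-bet + Plum libraries and 8 in each T-bet + GATA3 library, the size of its interaction depends on the added count. Myzap was also positive, at 17.9 and 39.4, 5.85 and 6.22, 18.4 and 27.2, and 12.7 and 9.78 CPM in the same order of lines.

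The sequences upstream of 6 of the 23 well-counted members are shown, as examples of each direction and of different classes, to mark where words that GATA or T-box factors can recognise lie. The 6 were chosen after their values were seen. Each is the 250 bases before the RefSeq transcript start on GRCm38.p6, 5′ to 3′ on the strand of the gene. For Nr4a3, Nkg7 and Gbp2 this window runs past the start of the Gencode gene interval given in this report. The T-box words marked in Nr4a3 and Nkg7 lie inside that interval. Capitals mark matches on either strand. The GATA words searched were AGATAA with its variant TGATAA, and likewise AGATAG with its variant TGATAG. The T-box word shown is GGTGTGA.
Cpa3 (chr3:20242182-20242431, minus strand): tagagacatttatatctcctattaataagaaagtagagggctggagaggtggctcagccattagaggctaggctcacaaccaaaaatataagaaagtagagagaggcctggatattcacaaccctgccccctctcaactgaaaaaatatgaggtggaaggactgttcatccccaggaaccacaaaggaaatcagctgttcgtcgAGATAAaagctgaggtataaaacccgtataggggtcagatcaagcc
Rgs13 (chr1:144177373-144177622, minus strand): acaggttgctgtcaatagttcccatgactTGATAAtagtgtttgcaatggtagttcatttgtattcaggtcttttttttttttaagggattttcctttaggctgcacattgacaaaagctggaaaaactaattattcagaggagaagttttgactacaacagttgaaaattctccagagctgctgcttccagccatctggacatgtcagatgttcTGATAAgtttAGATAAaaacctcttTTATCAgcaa
Nr4a3 (chr4:48045055-48045304, plus strand): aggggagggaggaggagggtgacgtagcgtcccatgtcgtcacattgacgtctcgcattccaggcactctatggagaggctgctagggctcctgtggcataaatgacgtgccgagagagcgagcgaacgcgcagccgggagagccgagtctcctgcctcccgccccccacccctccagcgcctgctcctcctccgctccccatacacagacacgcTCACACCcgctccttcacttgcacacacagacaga
Nkg7 (chr7:43436888-43437137, plus strand): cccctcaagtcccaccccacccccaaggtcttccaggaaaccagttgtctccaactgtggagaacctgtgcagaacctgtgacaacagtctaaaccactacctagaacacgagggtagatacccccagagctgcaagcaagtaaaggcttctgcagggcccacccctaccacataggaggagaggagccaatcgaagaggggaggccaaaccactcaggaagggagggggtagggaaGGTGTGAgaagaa
Gbp2 (chr3:142620413-142620662, plus strand): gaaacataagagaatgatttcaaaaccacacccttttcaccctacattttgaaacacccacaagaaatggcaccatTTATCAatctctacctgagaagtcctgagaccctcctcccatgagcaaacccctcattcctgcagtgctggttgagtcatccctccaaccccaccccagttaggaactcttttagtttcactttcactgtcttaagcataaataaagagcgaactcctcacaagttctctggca
Mylk4 (chr13:32783965-32784214, minus strand): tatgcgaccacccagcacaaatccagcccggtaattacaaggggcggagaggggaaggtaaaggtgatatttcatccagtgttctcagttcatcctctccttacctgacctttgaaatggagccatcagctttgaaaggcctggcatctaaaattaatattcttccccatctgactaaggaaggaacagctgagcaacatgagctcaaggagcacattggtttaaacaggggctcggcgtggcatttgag
The Rgs13 sequence held 4 GATA matches and those of Cpa3 and Gbp2 1 each, those of Nr4a3 and Nkg7 held 1 T-box match each, and that of Mylk4 held neither. Of the 16 such sequences RefSeq gave for 15 of the 23 members, 4 held a GATA word, 2 the T-box word and 10 neither. These matches are descriptions of the letters and not binding sites. Over the 300-base windows that run from 250 bases before to 50 bases after a start, 78 of the 300 members had a RefSeq promoter under their symbol, 110 in all. The GATA words were in 20.9% of them, in 19.0% of promoters of genes tested and in 29.8% of all 32851 promoters. They were in 27.0% of the 37 promoters of positive members and in 17.8% of the 73 of negative members. The T-box word GGTGTGA was in 5.45% of members' promoters, 3.36% of those of genes tested and 3.98% of all. The longer word AGGTGTGA, which contains it, was in 1.82%, 0.830% and 1.28%.

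Among negative members, Nkg7, Tnks1bp1, Flt1, Nupr1 and Vwa2 showed a gain with T-bet that was smaller when GATA3 was present. Nkg7 (chr7:43437073-43438249), which encodes a membrane protein of cytotoxic granules and stands on the TH1 and the NK-type lists, was at 0 and 0.0634 CPM in GFP + Plum cells and at 38.8 and 55.7 in T-bet + Plum. It was at 0.0957 and 0.254 CPM in GFP + GATA3 and at 20.7 and 11.8 in T-bet + GATA3. Within T-bet cells the 2 lines did not overlap. Both lines without T-bet were at most 4 counts per library, so its interactions of -1.61 and -3.13 depend on the added count. Within T-bet cells, where counts were higher, the GATA3 differences were -0.91 and -2.22.

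Tnks1bp1, which encodes a tankyrase-binding protein, was at 7.92 and 6.79 CPM in GFP + Plum, 23.4 and 21.9 in T-bet + Plum, 11.4 and 11.0 in GFP + GATA3 and 15.7 and 12.9 in T-bet + GATA3. Each line was separate from the others, and T-bet + GATA3 lay between the 2 single-factor lines. Flt1, which encodes VEGF receptor 1, was at 1.86 and 1.52, 11.2 and 13.3, 2.30 and 1.71, and 5.08 and 6.92 CPM in the same order of lines. Nupr1, a stress-response chromatin protein gene, was at 2.72 and 1.40, 19.3 and 14.4, 2.68 and 2.35, and 7.14 and 10.5 CPM. In all 3 genes the T-bet + GATA3 libraries lay below the T-bet + Plum libraries and above the GFP + Plum libraries. The edgeR estimates were -1.27 ± 0.25, -1.25 ± 0.41 and -1.19 ± 0.50 (SE). Vwa2, an extracellular matrix protein gene, was at 0.127 CPM or below in all 4 libraries without T-bet, at 7.72 and 13.8 CPM in T-bet + Plum and at 1.84 and 3.52 CPM in T-bet + GATA3.

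Among the 23 well-counted members, a GATA3 effect reduced by T-bet was seen in Nr4a3 and Rbfox2. Nr4a3 (chr4:48045153-48086447) encodes an orphan nuclear receptor induced by T cell receptor and calcium signals. It was at 84.0 and 99.3 CPM in GFP + Plum cells, 375 and 411 in T-bet + Plum, 38.7 and 44.9 in GFP + GATA3, and 408 and 528 in T-bet + GATA3. Without T-bet, the GATA3 libraries were lower than control by 1.12 and 1.14 on the log2 scale. With T-bet, the GATA3 difference was 0.12 and 0.36. The edgeR estimate of the interaction was 1.38 ± 0.23 (SE), and DESeq2's adjusted p was 0.000952. The interactions were 1.24 and 1.5, and the rule required a size of at least 1 in both replicates. Over the 16 ways to take 1 library per line, Nr4a3 did not keep a size of at least 1 in all. Nor did most well-counted members keep their sign and that size in all 16. These were Myzap, Gbp2, Tnks1bp1, Flt1, Nupr1, Vwa2, Rbfox2, Edil3, Rftn1, F2rl2, Rbfox1, Lzts1 and Samd9l. The remaining well-counted members, Cpa3 and Rgs13 among them, kept both.

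Rbfox2 (chr15, negative), which encodes an RNA splicing factor, was at 9.41 and 8.50 CPM in GFP + Plum, 6.35 and 5.13 in T-bet + Plum, 26.8 and 35.1 in GFP + GATA3, and 7.03 and 8.85 in T-bet + GATA3. GFP + GATA3 lay above all 6 other libraries, and the T-bet + GATA3 libraries were within the range of GFP + Plum or below it. The edgeR estimate was -1.30 ± 0.31 (SE). Several members at lower counts had this pattern in a starker form. Vdr, the vitamin D receptor gene, was at 1.72 and 4.95 CPM in GFP + GATA3 and at 0.133 CPM or below in every other library. Il1r1, the IL-1 receptor gene, was at 5.55 and 7.36 CPM in GFP + GATA3 and at 1.42 and 0.190 in GFP + Plum, and at 0.200 CPM or below in the 4 libraries with T-bet. For both genes the lines with T-bet had almost no counts, so the size of the interaction depends on the added count. For Il1r1 the sign was not stable either, with an edgeR estimate of -1.69 ± 2.92 (SE) that became 0.76 without T-bet + Plum replicate 2.

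The same pattern, with counts near the floor, was seen in 4 more of the 15 largest negative protein-coding members. Egr3, an early growth response factor gene, was at 2.11 and 1.33 CPM in GFP + GATA3 and at 0.200 to 0.871 CPM elsewhere. Mmp3, a matrix metalloproteinase gene, was at 1.05 and 1.78 CPM in GFP + GATA3, 0 in T-bet + GATA3 and at most 0.309 elsewhere. It shares 14.6% of its words with Mmp10, and their summed counts gave -0.08 and -2.54. Plxdc1, a plexin domain protein gene, was at 1.34 and 1.52 CPM in GFP + GATA3 and at 0.248 to 0.684 elsewhere. Pakap, the fourth, holds 97.8% of its words in common with Akap2 and Palm2, and its summed counts gave 1.68 and -1.58. Mrgprx1, a Mas-related receptor gene, was at 6.99 and 10.1 CPM in GFP + GATA3 and at 5.41 and 4.39 CPM in T-bet + GATA3, against 0.124 CPM or below in the 4 libraries without the GATA3 vector. Its GATA3 libraries were thus far above the rest with or without T-bet, and its baseline was near 0.

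Synergy, a level in T-bet + GATA3 cells beyond that of either single-factor line, was found in 48 members. Gbp2 (chr3:142620602-142638008), which encodes an interferon-induced guanylate-binding protein, was the only positive gene of this class among the well-counted members. It was at 0.433 and 2.16 CPM in GFP + Plum, 20.9 and 31.2 in T-bet + Plum, 0.479 and 0.634 in GFP + GATA3, and 49.8 and 61.0 in T-bet + GATA3. The T-bet + GATA3 libraries lay above all others. The edgeR estimate was 2.25 ± 0.82 (SE), and the interactions were 1.14 and 2.52, with control replicates that lay far apart. The lines without T-bet rested on 7 and 34 counts (GFP + Plum) and on 5 and 10 counts (GFP + GATA3). Within T-bet cells, where counts were higher, the GATA3 differences were 1.25 and 0.96.

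The negative genes of this class were lowest with both factors. RP23-115O21.3 (ENSMUSG00000110537.1, a long intergenic non-coding RNA at chr8:123165255-123178765) was at 469 and 478 CPM in GFP + Plum, 367 and 455 in T-bet + Plum, 218 and 263 in GFP + GATA3, and 55.6 and 55.5 in T-bet + GATA3. The 4 lines did not overlap, and the double line was lowest. The edgeR estimate was -1.91 ± 0.21 (SE), and DESeq2's adjusted p was 3.52e-10. However, 37.6% of its words also lie in other genes. Summed with the 2 genes that hold at least 10% of them, Fam73a and RP24-230J14.5, it gave -0.07 and -0.47. RP24-230J14.5 was at a higher level than RP23-115O21.3 in all 8 libraries and so outweighs it in the sum. RP23-359B23.11, another non-coding RNA of chromosome 8 that shares 74.2% of its words with other genes, RP23-115O21.3 among them, was also lowest in T-bet + GATA3 and gave -0.24 and -0.41 when summed.

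Edil3, which encodes an integrin-binding matrix protein, was at 11.6 and 14.5 CPM in GFP + Plum, 1.99 and 3.42 in T-bet + Plum, 11.3 and 10.6 in GFP + GATA3, and 0.757 and 0.466 in T-bet + GATA3. Rftn1, which encodes the lipid raft protein raftlin, was at 10.5 and 20.6, 3.61 and 6.09, 12.1 and 18.1, and 1.62 and 1.73 CPM in the same order. Without T-bet the mean GATA3 differences were -0.25 and 0.01, and the T-bet + GATA3 libraries lay below those of T-bet + Plum. Spink5, a serine protease inhibitor gene, was at 13.9 and 6.79, 6.10 and 4.10, 9.48 and 5.26, and 0.433 and 0.665 CPM. F2rl2, a thrombin receptor gene, was at 17.3 and 2.92, 4.23 and 5.2, 12.0 and 7.23, and 0.973 and 2.13 CPM, with control replicates that lay far apart. Slc47a1, an organic cation transporter gene, was at 1.55 and 1.27, 1.49 and 1.98, 3.92 and 4.31, and 0 and 0.333 CPM, and DESeq2's adjusted p for it was 0.0498. In T-bet + GATA3 the counts were 7 and 7 for Edil3, 15 and 26 for Rftn1 and 4 and 10 for Spink5. They were 9 and 32 for F2rl2 and 0 and 5 for Slc47a1. At the lowest of these counts the size of the interaction depends on the added count.

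Of the 15 largest positive protein-coding members, 7 were close to silent outside T-bet + GATA3 cells. Cyp2s1, a cytochrome P450 gene, was at 2.49 and 1.66 CPM in T-bet + GATA3 and at 0.124 CPM or below in the other 6 libraries. Cldn17, a tight junction claudin gene, was at 1.19 and 1.66 CPM there and at 0 in every other library. Pcdh19, a protocadherin gene, was at 1.84 and 2.59 CPM there and at 0.479 CPM or below elsewhere. Oosp1, Samd12, Jazf1 and Adcy5 were at 0.865 to 1.84 CPM in T-bet + GATA3 and at 0.205 CPM or below elsewhere. Counts in both T-bet + GATA3 libraries were what let these 7 pass the count filter and the members' rule. With the other lines near 0, the size of their interactions depends on the added count. For Cldn17 the edgeR estimate was 7.25 with an SE of 16317.7. Their low counts put all 7 under the 10 CPM selection. St6gal2, a sialyltransferase gene, and Ifitm1, an interferon-induced membrane protein gene, were positive by other routes. St6gal2 was at 0 and 0.0684 CPM in T-bet + Plum against 4.54 and 4.12 in T-bet + GATA3, and Ifitm1 was at 0 in both GFP + GATA3 libraries against 2.38 and 1.73 in T-bet + GATA3.

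In a shared effect, each factor alone gave a mean difference of at least 1 and the pair stayed short of their sum. This was seen in Ttn, Ccdc162, Rbfox1 and a non-coding RNA beside Sptlc1. Ttn, which encodes the giant muscle protein titin, was at 1.11 and 0.698 CPM in GFP + Plum, 19.4 and 30.5 in T-bet + Plum, 8.71 and 18.8 in GFP + GATA3, and 39.4 and 24.5 in T-bet + GATA3. All 6 libraries with a factor lay above the control, the double line overlapped T-bet + Plum, and the summed single differences of 8.21 compare with 4.91 measured. DESeq2's adjusted p was 5.06e-05, and the edgeR estimate was -3.59 ± 0.65 (SE). Ccdc162, a coiled-coil protein gene, was at 3.59 and 2.35, 10.3 and 9.64, 12.9 and 13.7, and 10.9 and 14.1 CPM in the same order. Its 3 factor lines reached nearly the same level, the summed differences were 3.87 and the measured difference 2.04. Rbfox1, a splicing factor gene, was at 1.49 and 1.65, 10.6 and 13.4, 3.54 and 4.25, and 5.62 and 15.9 CPM, and its T-bet + GATA3 replicates lay on either side of T-bet + Plum.

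The non-coding RNA beside Sptlc1, on chromosome 13, was at 1.92 and 0.634 CPM in GFP + Plum, 2.74 and 3.28 in T-bet + Plum, 14.3 and 18.3 in GFP + GATA3, and 7.25 and 4.12 in T-bet + GATA3. Without GATA3 its T-bet difference was 0.48 and 2.13, so only the mean met the class rule. With GATA3 that difference was -0.96 and -2.11, and the double line lay below GFP + GATA3. Its neighbour Sptlc1 encodes a subunit of serine palmitoyltransferase and was the only gene that DESeq2 called outside the members. Sptlc1 was at 131 and 136, 171 and 193, 235 and 279, and 160 and 183 CPM, with interactions of -0.94 and -1.11 and an adjusted p of 0.0341 by DESeq2. Both genes were highest in GFP + GATA3 cells.

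**Figure D4:**
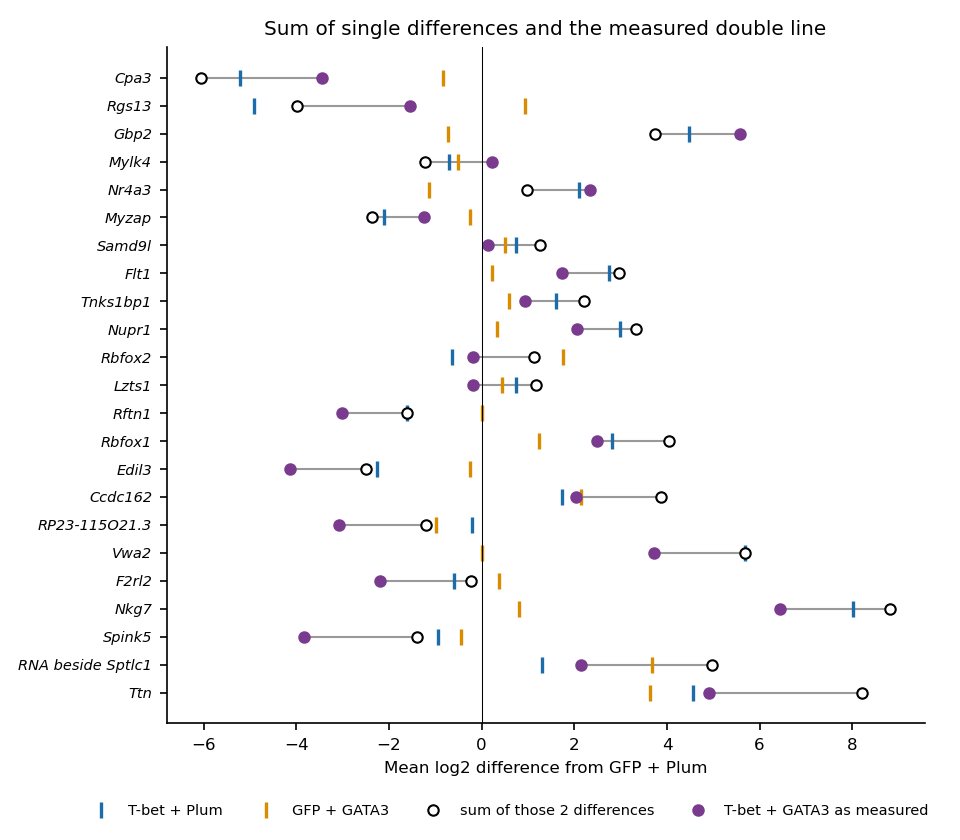
Mean log2 difference from GFP + Plum (x axis) for the 23 well-counted members (y axis): T-bet + Plum (blue tick), GFP + GATA3 (orange tick), the sum of those 2 (open circle) and T-bet + GATA3 as measured (purple circle). The line between circles is the interaction, from -3.30 for Ttn to 2.60 for Cpa3, and in Mylk4 and Lzts1 the measured point lies on the other side of 0 from both single differences.

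The last 3 well-counted members met no class, and no mean single-factor difference of theirs reached 1. Mylk4 (chr13:32700834-32783954), a myosin light chain kinase family gene, was at 44.9 and 51.9 CPM in GFP + Plum, 30.4 and 29.0 in T-bet + Plum, 34.6 and 32.7 in GFP + GATA3, and 59.6 and 54.0 in T-bet + GATA3. Both single-factor lines lay below the control and the double line lay above all others. Its interactions were 1.34 and 1.56, and its edgeR estimate was 1.46 ± 0.19 (SE, adjusted p = 0.363). Lzts1, a tumour suppressor gene, was at 5.01 and 8.63, 10.4 and 11.8, 7.27 and 11.0, and 5.51 and 6.12 CPM. Samd9l, an interferon-inducible antiviral gene, was at 12.2 and 9.45, 16.9 and 19.6, 17.0 and 13.9, and 10.7 and 12.9 CPM. In Samd9l both single-factor lines were above the control, and the double line overlapped the control.

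Other members of the 15 at each end were low or shared sequence. RP23-329M7.3, RP23-305P10.8, RP23-186O3.13, Gm10184, RP23-149C7.4 and RP23-454A11.1 had 76.5% to 100% of their words in other genes, and none of the 6 met the rule after summing. Grk1, Vmn1r12, Sema4a and Cpne4 had at most 3.69 CPM in any library. Sema4a, a semaphorin gene, was at 1.49 and 3.69 CPM in T-bet + Plum and at 0.532 CPM or below elsewhere. Cpne4, a copine gene, was at 1.74 and 2.19 CPM there and at 0.865 CPM or below elsewhere. Itga6, an integrin gene on the adhesion list, was below 1 CPM in every library.

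Genes on the lists of T cell and housekeeping functions were members about as often as other genes. Of 292 genes tested on the 18 lists, 7 (2.40%) were members, beside 2.03% of all genes tested: Nkg7, Gbp2, Nr4a3, Egr3, Il1r1, Itga6 and Mrgprx1. The TH1 list had 1 member of 18 tested and a median interaction of 0.12, and the TH2 list had 0 members of 16 tested and a median of -0.09, against -0.01 over all genes tested. The TH2 median was 0.51 in replicate 1 and -0.67 in replicate 2. Il5, the IL-5 gene, named after its values were seen, was at 1.61 and 0 CPM in GFP + Plum, 27.5 and 33.3 in T-bet + Plum, 4.02 and 16.8 in GFP + GATA3, and 97.2 and 5.59 in T-bet + GATA3. Its interactions were 0.57 and -9.34, and the second depends on the added count, since GFP + Plum replicate 2 was at 0. The T-bet + GATA3 replicates lay on either side of T-bet + Plum. The interferon response list had Gbp2 as its 1 member of 30 tested, and the cholesterol synthesis list had none of 19, with a range of -0.33 to 0.23.

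Groups of genes differed between libraries in ways that touch the interaction. The 21 genes of DNA replication and the cell cycle had a median interaction of -0.76 in replicate 1 and 0.85 in replicate 2, and none was a member. Relative to its mean over 8 libraries, their median log2 level was -0.22 and -0.46 in T-bet + Plum and -0.75 and 0.06 in T-bet + GATA3. The proliferation marker Mki67 followed, with 76.8 CPM in T-bet + GATA3 replicate 1 and 146 CPM in replicate 2. Small nucleolar RNAs, which guide modification of ribosomal RNA, provided 15 members, 14 of them positive, among 198 tested (7.58%, beside 2.03% of all genes tested), and 175 of the 198 (88.4%, beside 49.0%) had a mean interaction above 0. Their median level was -0.27 and 0.52 in GFP + Plum, -0.15 and 0.06 in T-bet + Plum, -0.26 and -0.19 in GFP + GATA3, and 0.40 and 0.07 in T-bet + GATA3. The highest libraries were thus T-bet + GATA3 in replicate 1 and GFP + Plum in replicate 2. Rnu3b1 to Rnu3b4 had identical counts and are 1 source of reads. The members Snora73a, Snord21, Snora44, Snora61 and Snord14d had 100% of their words in other genes and did not meet the rule after summing. Snord13, Snord89 and the negative Snord71 had 0% in other genes and still met it. Of 52 histone genes tested, 5 (9.62%) were members, all positive, and the medians were 0.09 and 0.82. Among these, Hist1h2af, Hist1h4n, Hist1h2bq and Hist1h2ad had 68.3% to 98.3% of their words in other genes and did not meet the rule after summing. The part of these library differences in the other members' interactions was not tested.

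**Figure D5:**
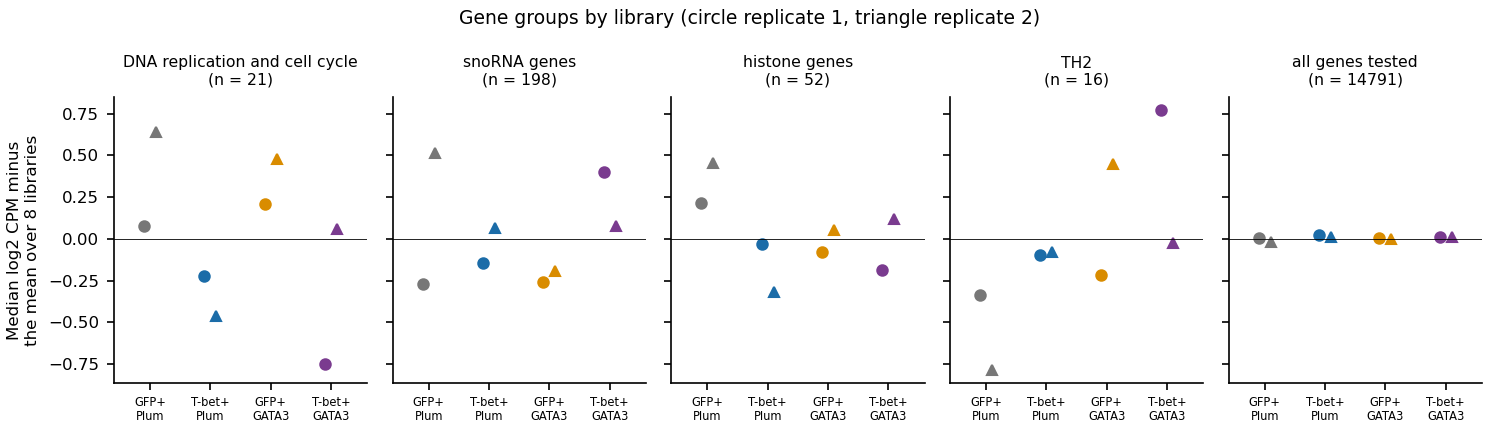
Median log2 CPM of each gene group minus its mean over the 8 libraries (y axis) in each library of the 4 lines (x axis), with circles for replicate 1 and triangles for replicate 2. The cell cycle group is lowest in the T-bet + GATA3 replicate 1 library (-0.75), the snoRNA group is highest in GFP + Plum replicate 2 (0.52), and all genes tested lie near 0 in every library.

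The threshold of 1 cut through a continuous range. Just inside it were RP23-354M21.1 (1.01, the smaller of its 2 interactions) and RP23-98C9.8 (1.02) among positive genes, and Fgf21 (-1.0) and RP23-158O11.5 (-1.01) among negative genes. Outside it were Ccdc142os (0.998), RP23-17C12.4 (-0.997) and Il22, the IL-22 gene (-0.992).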

How the data were processed

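RNA was sequenced from 4 lines of stimulated EL4 cells, with 2 libraries per line and 8 in all. Poly(A) selection and ribosomal RNA depletion are named in the labels. The authors checked and trimmed reads (FastQC, Trim Galore) and estimated transcript abundance with kallisto on mm10 (GRCm38) Gencode models. The methods and the names of the deposited files give different Gencode releases, and tool versions are not given in the sources used here. The deposited estimated counts, for 136535 transcripts per library, can hold fractions and carry no normalization. The TPM deposited by the authors are scaled to a fixed total and served only as an alternative. Replicates were not pooled, and the authors' own gene-level results were not used.

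These counts were added up over the transcripts of a gene and rounded. edgeR 4.0.16 (R 4.3.3) was run with TMM, filterByExpr and the quasi-likelihood test with 1 group per line, without a replicate block, and DESeq2 1.42.0 was an alternative. SE are the size of the log2 estimate divided by the square root of F. CPM used TMM-scaled library sizes, and log2 CPM a prior count of 2. The test was checked on simulated counts, but the genes changed there were at higher levels than most members, so the check does not cover them. Estimated counts per library were 8038565 to 16003519. Members and lists were chosen with earlier results of these data known. Classes used mean log2 differences from GFP + Plum, signed by the interaction: synergy where the double line exceeded the largest of both single differences and 0 by at least 1, otherwise a shared effect where both single differences opposed the sign by at least 1, otherwise the factor whose difference did so. Named genes were the 15 protein-coding members with the largest interaction in each direction (by the smaller replicate), members on a list, Tbx21, Gata3 and genes near the threshold. Other named genes were chosen after their values were seen, and 2 genes that the rule names are not reported here. Gene positions and 31-base words came from Gencode M21 on GRCm38, in which 54079 of 54146 gene identifiers were found. The words of all transcripts of a gene were counted once, on either strand, and M21 is neither release given for the deposited values. Promoters came from RefSeq (GRCm38.p6). A line was called near the floor with at most 3 counts in both libraries.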

Additional observations from a re-analysis of the deposited data

Results flagged for a closer look

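Of 55 genes examined (those named by rule and the 23 well-counted members), 19 had a GATA3 or T-bet difference that pointed one way in both replicates without the other factor and the opposite way in both replicates with it. The difference between those directions was not tested gene by gene beyond the interaction test above, and the genes were chosen for a large interaction. A choice of large interactions of one sign in both replicates favours such turns. The share over all genes tested was not counted, so whether 19 of 55 is high cannot be told. Each value below is the difference with the other factor minus the difference without it, on the log2 scale, as the mean of 2 replicates.

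The 23 well-counted members had at least 10 CPM in their highest line and less than 50% of words in other genes. Among them, the GATA3 difference was below 0 in control cells and above 0 in T-bet cells for Cpa3 (2.60), Nr4a3 (1.37) and Mylk4 (1.45). It was above 0 in control cells and below 0 in T-bet cells for Nkg7 (-2.37), Flt1 (-1.24), Tnks1bp1 (-1.26), Lzts1 (-1.36) and Samd9l (-1.14). For Nkg7 the direction in cells without T-bet rests on 0 to 4 counts per library. In Flt1 and Lzts1 the GFP + GATA3 libraries overlapped those of GFP + Plum, so the direction there rests on how same-numbered libraries were set together. The same holds for Nr4a3 in T-bet cells. The T-bet difference went from below to above 0 in the presence of GATA3 in Mylk4 (1.45), which was below control with either factor and above it with both. It went from above to below 0 in Lzts1 (-1.36), Samd9l (-1.14) and the non-coding RNA beside Sptlc1 (-2.84).

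Among members at lower counts, the GATA3 difference turned from above to below 0 in the presence of T-bet for Slc47a1 (-4.24), Plxdc1 (-2.34), Itga6 (-1.76), Cpne4 (-2.15), Egr3 (-2.77) and Vmn1r12 (-2.26). The T-bet difference turned likewise in the presence of GATA3 for Plxdc1 (-2.35), Grk1 (-2.31), Egr3 (-2.77), Vmn1r12 (-2.26) and Mrgprx1 (-1.46). Libraries of the compared lines overlapped for Itga6 (GATA3 without T-bet), Plxdc1 (T-bet without GATA3) and Vmn1r12 (T-bet with GATA3). The remaining 2 flagged genes share at least 76.5% of their words with other genes. They are RP24-491I24.3 (-7.88 for GATA3 and -7.88 for T-bet), at 16.9 CPM in its highest line, and RP23-186O3.13 (-3.84 for GATA3).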

How the results depend on the processing

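The count of genes called for the interaction was 0 with edgeR, and also with library size only, DESeq2 size factors, at least 10 counts in every library, transcript length offsets and protein-coding genes only, with 238 to 424 genes at an unadjusted p below 0.05. DESeq2 called 14 and edgeR without a low count filter called 145. Leaving out 1 library gave 0 to 3 calls (1 without GFP + Plum replicate 1 and 3 without T-bet + GATA3 replicate 2), and the lone library was then assumed to vary like the other lines. With replicate number as a block edgeR called 0 genes (572 at an unadjusted p below 0.05). The numbers do not pair the samples by source, and the same-numbered deviations from line means correlated at -0.05 to 0.30 over the 6 pairs of lines. For the named genes the block called none, so it altered no call.

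The count of 300 members became 199 with a prior count of 5, 123 on log2(TPM + 1), 863 without a low count filter, 43 with at least 10 counts in every library, 89 over all 16 ways, 121 at a threshold of 1.5, 828 at a 1.5-fold threshold and 131 for protein-coding genes. Alternatives chosen after seeing the data gave 168 when counts were summed with genes that share sequence, 185 for genes with under 50% of their words in other genes, 38 at 10 CPM or more and 23 with both conditions. With 1 library replaced by its partner, 422 to 653 genes met the rule, most without GFP + Plum replicate 1, and the replicates then share a library by construction. Of the 300 members, 184 kept their class at a 1.5-fold class threshold and 162 on log2(TPM + 1), and 223 to 276 did with 1 library left out. The mean share of the same sign in the other replicate was 49.2% and became 44.0% with at least 10 counts in every library. The count of listed members, 7, became 3 on log2(TPM + 1) and 1 with at least 10 counts in every library, both chosen after seeing the data.

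Among the 38 named genes, 6 of 415 edgeR or DESeq2 values passed the threshold: DESeq2 for Slc47a1, Pde2a, Cpa3 and Nr4a3, and edgeR for Cpa3 (3.25) without GFP + Plum replicate 1 and Pde2a (6.17) without T-bet + GATA3 replicate 2. The sign turned for 3 genes in edgeR with 1 library left out. Il1r1 ranged from -5.43 to 0.76 (without T-bet + Plum replicate 2), Tbx21 from -0.22 (without GFP + Plum replicate 1) to 0.78, and Gata3 from -0.35 to 0.13, with values above 0 without GFP + Plum replicate 1, T-bet + Plum replicate 2 or T-bet + GATA3 replicate 2. With a line near 0 counts, estimates are set by the added count, and at these depths a lower level cannot be told from none.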
